A study of Mus musculus with 6 samples.

Results

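The NRF2 antioxidant genes described here are 10 genes picked by symbol from the deposited count table of 60832 genes: the transcription factor Nfe2l2 (which encodes NRF2), its inhibitor Keap1, and 8 genes of the antioxidant response, Gclc, Gclm, Slc7a11, Gsr, Txnrd1, Srxn1, Nqo1 and Osgin1. All 10 were found, each on 1 row, and all 10 passed the filter on low counts that left 15474 genes for testing. The libraries are RNA-seq of mouse cells labelled as liver sinusoidal endothelial cells (LSECs). The cells were taken with anti-CD146 beads from xenografts that model liver metastasis in young male BALB/c-Nu mice, an athymic strain. The xenografts grew from HCT116, a human colorectal cancer cell line, injected directly into the liver. Marker genes, given below, go against the labelled cell type. In 3 libraries the labels call the xenografts bevacizumab-sensitive and give no treatment, and the vehicle mice of the study received IgG. In the other 3 they are called bevacizumab-resistant, a state that this model acquires under repeated intraperitoneal injection of bevacizumab, an antibody against VEGF-A. The labels state for all 6 libraries that the cells were cultured for 24 h and do not say whether a library is 1 mouse or a pool, so p-values measure the spread between these libraries, which may be partly technical.

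NRF2 is a basic leucine zipper transcription factor that is held at a low level while KEAP1, an adaptor of a CUL3 ubiquitin ligase, presents it for degradation. Oxidants and electrophiles modify cysteines of KEAP1, NRF2 then accumulates, pairs with small MAF proteins and binds antioxidant response elements near genes for glutathione synthesis, thioredoxin recycling and quinone reduction. In liver the response is known from hepatocytes, Kupffer cells and endothelial cells alike, so its RNA does not mark a cell type.

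Total counts on genes ranged from 17599326 to 20726684 per library. Values are counts scaled to library size (CPM) scaled by the TMM method unless FPKM, which also divides by gene length, is named. A count of 3 equalled 0.136 to 0.195 CPM, depending on the library, a floor that covers counting error only and that every member exceeded in every library. The labelled cell type was checked against marker genes. The CPM of 13 macrophage and Kupffer cell markers summed to between 22099 and 41707 per library, that of 11 LSEC markers to between 69.1 and 443 and that of 11 pan-endothelial markers to between 73.6 and 501, and Mcam, which encodes the CD146 used for isolation, had between 6 and 79 counts. Per gene length, the median macrophage and Kupffer cell marker lay between 803 and 1265 FPKM over the libraries, the median LSEC marker between 0.512 and 2.31 FPKM and the median pan-endothelial marker between 0.627 and 4.13 FPKM. In every library macrophage marker RNA thus far exceeded endothelial marker RNA, and the levels given here are levels in libraries labelled as LSECs and not levels shown to be of endothelial cells. In bulk libraries fewer cells of a type and less RNA per cell cannot be told apart. Replicate 2 of the sensitive group stood apart: Pearson's r of log2 CPM across genes was between 0.86 and 0.901 for its pairs with other libraries and between 0.954 and 0.974 for the other pairs. Values without it are given beside those of all libraries.

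The member genes lie on chromosomes 2, 3, 8, 9 and 10. RefSeq starts (GRCm38.p6) were matched by symbol for 8 of the 10, in 10 windows of 250 bases before the start, of which Txnrd1 has 3. The letters TGACNNNGC, a core of the antioxidant response element, occurred on either strand in 3 of the 10 windows, those of Nfe2l2, Gclm and Txnrd1, and in 10.2% of all 32851 such windows. A second form, TGAGNNNGC, was searched after the windows had been read and occurred in windows of Srxn1, Slc7a11 and Osgin1 and in 14.4% of all windows. The longer form TGANTCAGC, also searched afterwards, occurred in the windows of Srxn1 and Osgin1 and in 1.02% of all windows. These forms overlap in sequence and a match is a description of letters, not a bound site. The stretches of Nfe2l2, Gclm and Txnrd1 are shown for their match to the first form, and those of Srxn1 and Osgin1 for the longer form. The core match is in capitals, in the orientation of the gene, with up to 40 bases on each side:
Nfe2l2, chr2:75704855-75704913, minus strand: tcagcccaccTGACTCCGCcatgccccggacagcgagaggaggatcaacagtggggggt
Gclm, chr3:122245383-122245471, plus strand: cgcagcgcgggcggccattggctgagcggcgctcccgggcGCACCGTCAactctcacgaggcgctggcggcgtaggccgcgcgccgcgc
Txnrd1, chr10:82859074-82859162, plus strand: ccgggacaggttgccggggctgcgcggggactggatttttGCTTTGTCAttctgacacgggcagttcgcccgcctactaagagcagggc
Srxn1, chr2:152105439-152105523, plus strand: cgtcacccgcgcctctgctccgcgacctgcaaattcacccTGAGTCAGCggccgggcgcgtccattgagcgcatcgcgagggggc
Osgin1, chr8:119437008-119437096, plus strand: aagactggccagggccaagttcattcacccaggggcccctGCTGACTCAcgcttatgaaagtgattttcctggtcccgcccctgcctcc
The match lies 240 to 232 bases before the start of Nfe2l2, 134 to 126 before that of Gclm, 45 to 37 before that of Srxn1 and 99 to 91 before that of Osgin1. In Txnrd1 it lies 92 to 84 bases before the start that follows the window chr10:82858956-82859205. The other windows of Txnrd1 hold no match. In Gclm, Txnrd1 and Osgin1 the capitals are the core as read on the opposite strand. The bases checked after the start used for Nfe2l2 were not found in a GENCODE M21 transcript of the gene. For the other windows they were found, so the distance for Nfe2l2 is less certain. All 59 bases of the stretch of Nfe2l2 lie in exons of GENCODE M21.

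Per unit of gene length, the abundant members were the reductases and the thioredoxin arm. Gsr, glutathione reductase, which regenerates reduced glutathione with NADPH, had the highest mean level, 151 FPKM over the 6 libraries, with 260, 112 and 103 FPKM in sensitive replicates 1, 2 and 3 and 144, 141 and 148 FPKM in resistant replicates 1, 2 and 3. Gsr was the highest member in 5 of 6 libraries, and Txnrd1 was the highest in resistant replicate 3. Txnrd1, cytosolic thioredoxin reductase, averaged 86.1 FPKM, and Srxn1, sulfiredoxin, which repairs overoxidized peroxiredoxins, averaged 79.8 FPKM. Gclm averaged 51.7, Osgin1 39.9, Nfe2l2 39.3, Gclc 32.5 and Keap1 16.4 FPKM. Nqo1, which reduces quinones by 2 electrons and is a widely used readout of NRF2 activity, averaged 7.71 FPKM, and Slc7a11, the cystine import subunit of system xc-, averaged 4.18 FPKM and was the lowest member in all 6 libraries. Between neighbours in this order the ranges over libraries overlapped in all 9 cases. Gclc was above Keap1, Keap1 above Nqo1 and Nqo1 above Slc7a11 in 6 of 6 libraries, Osgin1 was above Nfe2l2 in 3 of 6, and the other neighbours kept their order in 5 of 6.

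**Figure D1:**
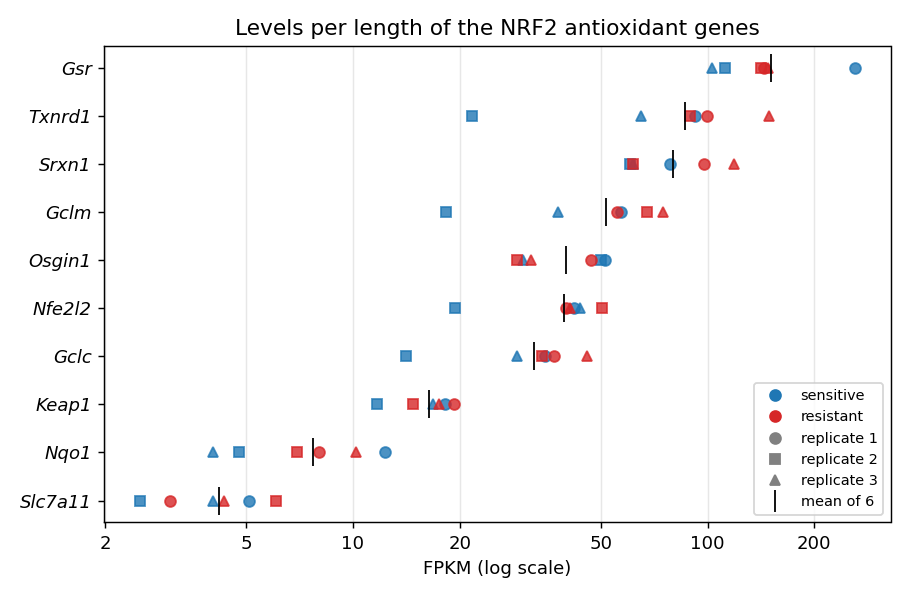
FPKM (x axis, log scale) of the 10 genes in each of the 6 libraries, with color for the group, marker shape for the replicate number and a vertical tick for the mean of 6. Gsr sits highest with a mean of 151 FPKM and Slc7a11 lowest with 4.18 FPKM, and the square of sensitive replicate 2 is the lowest for Txnrd1, Srxn1, Gclm, Nfe2l2, Gclc, Keap1 and Slc7a11.

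The comparison of resistant with sensitive xenografts asks whether cells collected as LSECs differ in expression after sustained bevacizumab. For the NRF2 antioxidant genes, Txnrd1 and Gclm showed the largest differences, with fitted levels 1.87 and 1.73 times as high in the resistant group, and Osgin1 the largest in the other direction. By the quasi-likelihood test of edgeR, 0 of the 10 passed a threshold of 0.05 after Benjamini-Hochberg adjustment over all genes, and 0 passed it before adjustment. Across the 15474 genes, 0% passed after adjustment and 3.08% before it, 0.536% higher and 2.54% lower in the resistant group. DESeq2's Wald test, limma-voom and limma on log2(FPKM + 1) also gave 0 of the 10 after adjustment, and each gave 1 before it, Gclm. With DESeq2, 0.155% of all genes passed after adjustment and 4.8% before it. Before adjustment 2.48% of all genes passed with limma-voom and 3.06% with limma on log2(FPKM + 1). Of the 10, 8 had a fitted log2 fold change above 0, where 50.8% of all genes had one, and their median log2 fold change was 0.25, against 0.01 over all genes. Without sensitive replicate 2 these values were 6 of 10 and 0.05, beside 49.4% and -0.00 over all genes, and 0 of the 10 passed before adjustment, beside 3.96% of all genes. For 2 of the 10, Txnrd1 and Gclc, all resistant libraries lay above all sensitive ones, beside 4.64% of all genes, and for 0 of the 10 all lay below, beside 4.38% (9.02% in either direction).

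**Figure D2:**
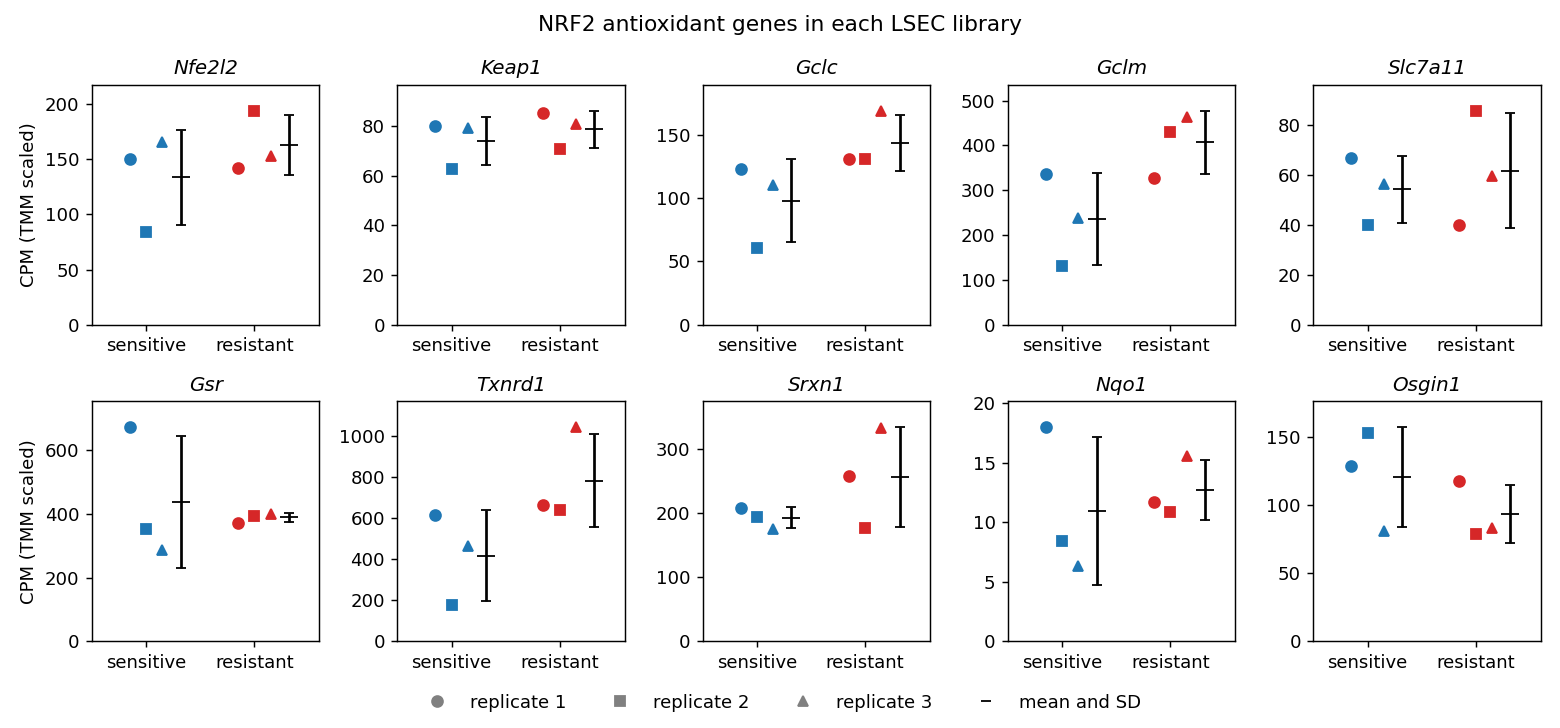
CPM (y axis, from 0) of each gene in the 3 sensitive and 3 resistant libraries, with marker shape for the replicate number and the mean ± SD of each group (n = 3) beside the points. The resistant points of Txnrd1 (641 to 1043 CPM) and Gclc (131 to 169 CPM) lie above all sensitive points, and the points of the other 8 genes overlap between the groups.

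The regulator and its inhibitor come before the targets. Nfe2l2 (ENSMUSG00000015839, chromosome 2 of GRCm38, 75675513 to 75704641, minus strand) had 150.1, 84.2 and 166 CPM in sensitive replicates 1, 2 and 3 and 142, 194 and 153 CPM in resistant replicates 1, 2 and 3. Sensitive replicate 2 was low and resistant replicate 2 high, and the other 4 libraries lay between 142 and 166 CPM regardless of group. Between the groups the difference was 0.29 on the log2 scale (SE, standard error, 0.295, adjusted p = 0.940 in edgeR's test, 95% interval -0.41 to 0.98), and 0.03 without sensitive replicate 2. NRF2 is controlled mainly through protein stability, so this is a level of RNA and not of the factor's activity. Keap1 (ENSMUSG00000003308, chromosome 9, 21229730 to 21239361, minus strand) had 80.1, 62.8 and 79.1 CPM in the sensitive and 85.1, 70.6 and 80.7 CPM in the resistant group. It varied least of the 10, by 1.36 times between the lowest and the highest library, and replicate 2 was the lowest of each group. For Keap1 the log2 fold change of 0.09 (SE 0.195, adjusted p = 0.944, edgeR) had a 95% interval from -0.37 to 0.55 and was -0.02 without sensitive replicate 2. An antisense gene, Gm16754, overlaps exons of Keap1 with 29 to 41 counts per library, and since no source used here states strand-specific counting these reads cannot be told apart with certainty.

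Glutathione is made from cystine-derived cysteine by glutamate-cysteine ligase, whose catalytic subunit is Gclc and whose modifier subunit, Gclm, raises the activity of the catalytic subunit. Gclm (ENSMUSG00000028124, chromosome 3, 122245557 to 122270732, plus strand) had 337, 131 and 239 CPM in sensitive replicates 1, 2 and 3 and 328, 430.1 and 463 CPM in resistant replicates 1, 2 and 3. Resistant replicates 2 and 3 were the highest, and sensitive replicate 1 lay just above resistant replicate 1, so the groups overlapped. The group means were 236 ± 103 and 407 ± 70.5 CPM (SD, n = 3), with a log2 fold change of 0.79 (SE 0.358, unadjusted p = 0.0634, adjusted p = 0.940, edgeR). Its 95% interval ran from -0.06 to 1.63, and without sensitive replicate 2 the log2 fold change was 0.49. Gm17494, on the opposite strand, reaches an exon of Gclm with 20 to 34 counts per library, and the same limit on strand holds as for Keap1. The pseudogene Gm6061, on the same strand, also reaches an exon of Gclm and had 0 counts. Gclc (ENSMUSG00000032350, chromosome 9, 77754535 to 77794485, plus strand) had 123, 60.5 and 110.3 CPM in the sensitive and 131, 131 and 169 CPM in the resistant group. The groups did not overlap, although sensitive replicate 1 was close to the resistant replicates 1 and 2. The log2 fold change of Gclc was 0.55 (SE 0.299, unadjusted p = 0.108, adjusted p = 0.940, edgeR) and 0.29 without sensitive replicate 2. The ratio of Gclm to Gclc in FPKM was 1.63, 1.30 and 1.30 in the sensitive and 1.5, 1.97 and 1.64 in the resistant libraries, ranges that overlapped.

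Slc7a11 (ENSMUSG00000027737, chromosome 3, 49892526 to 50443614, minus strand) brings in the cystine for this synthesis. It had 66.8, 39.9 and 56.3 CPM in the sensitive and 39.9, 85.9 and 59.6 CPM in the resistant group. The lowest values of the groups were equal to the digits given, and the highest was resistant replicate 2, so the groups overlapped fully. The fitted difference was 0.19 on the log2 scale (SE 0.332, adjusted p = 0.940, edgeR), -0.00 without sensitive replicate 2 and -0.12 without resistant replicate 2. Slc7a11 is also a target of ATF4, the factor of the integrated stress response. Atf4 itself had a log2 fold change of -0.09 (0.08 without sensitive replicate 2), and of 9 genes of an ATF4 list 0 had an unadjusted p-value under 0.05, with a median log2 fold change of -0.16 that turned to 0.05 without sensitive replicate 2. Phgdh, of serine synthesis, and Ddit3, which encodes the stress factor CHOP, were at -0.92 and -0.87 with all libraries and at 0.32 and -0.04 without sensitive replicate 2, where both had their highest level. Gsr (ENSMUSG00000031584, chromosome 8, 33652523 to 33698163, plus strand) had 673, 352 and 286 CPM in the sensitive and 373, 395 and 401 CPM in the resistant group. Sensitive replicate 1 was the highest library by far, and the resistant libraries lay within the range of the sensitive ones. Gsr thus had a log2 fold change of -0.17 (SE 0.337, adjusted p = 0.944, edgeR) and -0.31 without sensitive replicate 2, but 0.29 without sensitive replicate 1, so its direction rested on the latter library.

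The thioredoxin arm passes electrons from NADPH through thioredoxin reductase to thioredoxin and on to the peroxiredoxins. Txnrd1 (ENSMUSG00000020250, chromosome 10, 82833951 to 82897712, plus strand) had 614, 176 and 463 CPM in sensitive replicates 1, 2 and 3 and 662, 641 and 1043 CPM in resistant replicates 1, 2 and 3. Resistant replicate 3 was the highest and sensitive replicate 2 the lowest, 5.93 times apart, the widest range of the 10 genes. All resistant libraries lay above all sensitive ones, with sensitive replicate 1 close below. The group means were 418 ± 222 and 782 ± 226 CPM (SD, n = 3), and the log2 fold change was 0.90 (SE 0.463, unadjusted p = 0.0912, adjusted p = 0.940, edgeR, 95% interval -0.19 to 2.00). Without sensitive replicate 2 it was 0.53. Eid3, on the same strand, lies within Txnrd1 but outside its exons, with 0 to 78 counts. Srxn1 (ENSMUSG00000032802, chromosome 2, 152105516 to 152111376, plus strand) had 208, 194 and 175 CPM in the sensitive and 258, 177 and 332 CPM in the resistant group. Resistant replicates 1 and 3 lay above all sensitive libraries and resistant replicate 2 among them. Srxn1 had a log2 fold change of 0.41 (SE 0.264, adjusted p = 0.940, edgeR) with all libraries and 0.41 without sensitive replicate 2, so this value did not rest on that library. It was 0.63 without resistant replicate 2 and 0.19 without resistant replicate 3.

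Nqo1 (ENSMUSG00000003849, chromosome 8, 107388225 to 107403206, minus strand) had the lowest counts of the 10, between 129 and 376 per library. It had 18.0, 8.44 and 6.31 CPM in the sensitive and 11.7, 10.9 and 15.6 CPM in the resistant group, and the resistant libraries lay within the sensitive range. Nqo1 had a log2 fold change of 0.22 (SE 0.427, adjusted p = 0.943, edgeR) with a 95% interval from -0.79 to 1.23. It was 0.06 without sensitive replicate 2 and lay between -0.05 and 0.79 when any single library was omitted. Osgin1 (ENSMUSG00000074063, chromosome 8, 119434124 to 119446256, plus strand), an oxidative stress-induced growth inhibitor, had 129, 153 and 81.0 CPM in the sensitive and 118, 78.8 and 83.5 CPM in the resistant group. Sensitive replicates 1 and 2 and resistant replicate 1 were high, from 118 to 153 CPM, and the other 3 libraries low, from 78.8 to 83.5 CPM, so the split did not follow the groups. The summed CPM of 11 neutrophil markers was 3913 and 7226 in sensitive replicates 1 and 2 and 1634 in resistant replicate 1. It was 279.6 in sensitive replicate 3 and 868 and 194 in resistant replicates 2 and 3. The libraries high in Osgin1 thus had the highest sums, but the sums had no clear break below them as Osgin1 had. The part of neutrophil RNA in the Osgin1 levels was not tested. Osgin1 had a log2 fold change of -0.37 (SE 0.293, adjusted p = 0.940, edgeR), with -0.58 and -0.18 as the lowest and highest values after leaving out any 1 library, the latter without sensitive replicate 2.

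**Figure D3:**
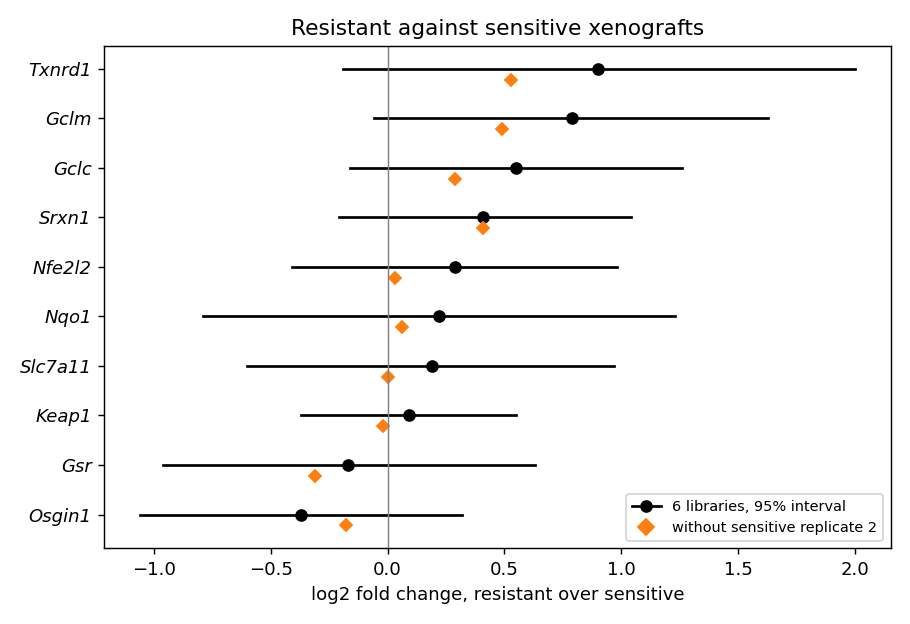
Log2 fold change of resistant over sensitive (x axis) for the 10 genes, with the 95% interval of edgeR's fit to 6 libraries (black) and the value without sensitive replicate 2 (orange diamond). All 10 intervals include 0, and the values of Txnrd1, Gclm and Gclc move from 0.90, 0.79 and 0.55 to 0.53, 0.49 and 0.29.

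Libraries of 1 group differed from each other in these genes. Taking each gene's log2 CPM relative to its mean over the 6 libraries, the median of the 10 genes was 0.20, -0.44 and -0.25 in sensitive replicates 1, 2 and 3 and 0.15, 0.08 and 0.29 in resistant replicates 1, 2 and 3. Sensitive replicate 1 thus lay among the resistant libraries. Resistant replicate 3 was the highest library for 4 of the 10 genes, Gclc, Gclm, Srxn1 and Txnrd1, a count that was not made over all genes. Sensitive replicate 2 was the lowest for 5, Nfe2l2, Keap1, Gclc, Gclm and Txnrd1, and the highest for 1, Osgin1. Over all genes tested sensitive replicate 2 was the lowest library for 40.7% and the highest for 33.3%. Among genes with an average log2 CPM of at least 3, which all 10 members reach, it was the lowest for 44%. The counts for sensitive replicate 2 thus do not set the members apart.

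**Figure D4:**
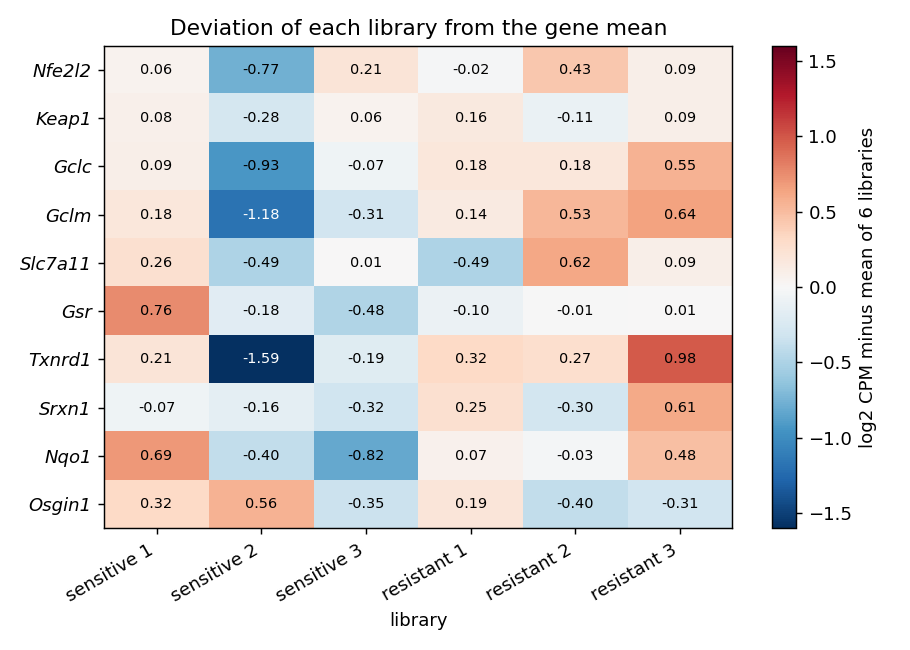
Log2 CPM of each gene (rows) in each library (columns) minus the gene's mean over the 6 libraries, with the value printed in each cell, blue for below and red for above. The column of sensitive replicate 2 reaches -1.59 for Txnrd1 and -1.18 for Gclm, and that of resistant replicate 3 reaches 0.98 for Txnrd1.

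Sensitive replicate 2 also differed from the other libraries by gene length, taken as the length that the deposited counts and FPKM values imply. Among genes with an average log2 CPM of at least 3, its median log2 ratio to the mean of the other 5 libraries was 0.70 for 331 genes of up to 1000 bases, 0.65 from 1000 to 2000, 0.15 from 2000 to 4000, -0.31 from 4000 to 8000 and -0.71 for 1829 genes above 8000 bases. In the 5 other libraries the class medians lay between -0.34 and 0.20. Several members are long, with 7086 bases for Txnrd1, 6291 for Gclm and 13922 for Slc7a11. The log2 ratio of this library was -1.96 for Txnrd1 and -1.45 for Gclm, below the lower quartile of -0.84 for their length class, and -0.63 for Slc7a11, near the median of its class. Gclc (3766 bases) and Nfe2l2 (3796 bases), at -1.14 and -0.93, and Nqo1 (1553 bases), at -0.57, were also below the lower quartiles of their classes, -0.41 and 0.03. The length trend of each library was also removed, an alternative chosen after seeing the data. Txnrd1 then had 576, 222 and 428 CPM in the sensitive and 625, 610 and 975 CPM in the resistant libraries. Sensitive replicate 2 was then the lowest library for 6 of the 10 genes, a count that was not made over all genes. In that fit the log2 fold changes of Txnrd1 and Gclm were 0.85 and 0.72 (adjusted p = 0.931, edgeR). RNA quality of the libraries was not tested.

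**Figure D5:**
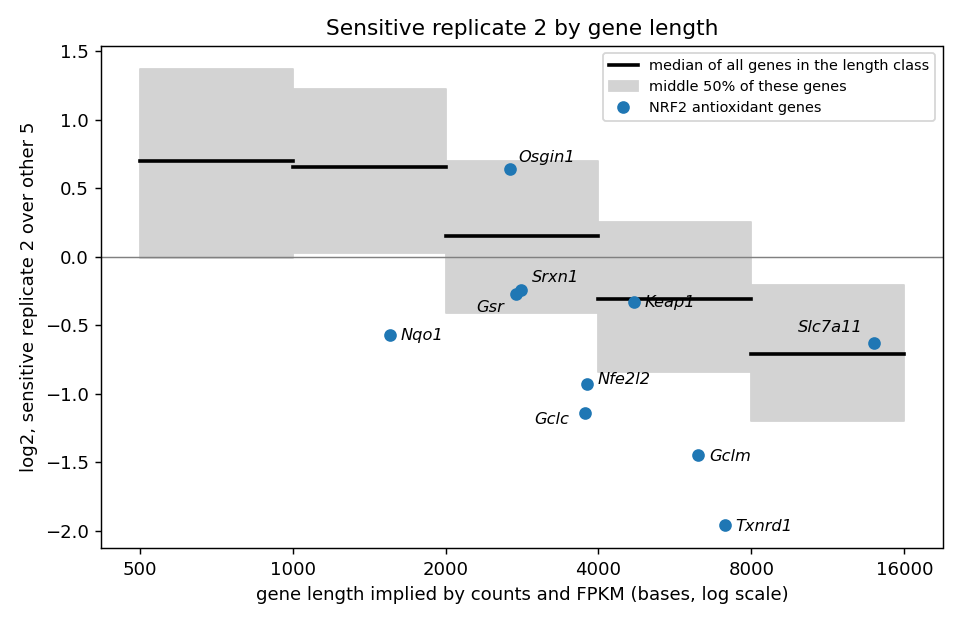
Log2 ratio of sensitive replicate 2 to the mean of the other 5 libraries (y axis) against gene length in bases (x axis, log scale). Black lines are medians and grey boxes the middle 50% of all genes with an average log2 CPM of at least 3 in 5 length classes, the shortest and the longest of which are open-ended and drawn with a set width, and blue points are the 10 genes, of which Txnrd1, Gclm, Gclc, Nfe2l2 and Nqo1 lie below the box of their class.

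Other genes of the NRF2 system were read in 7 lists with 76 genes, 75 of them tested. None of the 75 had an adjusted p-value under 0.05 (edgeR), and 3, or 4%, had an unadjusted one, near the 3.08% of all genes. Their median log2 fold change was -0.02, and 37 had a value above 0, beside 0.01 and 50.8% over all genes. Without sensitive replicate 2 the median was 0.14 and 54 of the 75 were above 0, beside -0.00 and 49.4% over all genes. In that fit 3 of the 75 had an unadjusted p-value under 0.05 (edgeR), beside 3.96% of all genes. The split of these 75 was thus less even without that library, and it was not counted with any other library left out.

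Catalase, which breaks down hydrogen peroxide, had the lowest unadjusted p-value of the 75. Cat had 331, 110.0 and 359 CPM in sensitive replicates 1, 2 and 3 and 398, 648 and 834 CPM in resistant replicates 1, 2 and 3. All resistant libraries lay above all sensitive ones, and as for Txnrd1, Gclm and Gclc the lowest library was sensitive replicate 2 and the highest resistant replicate 3. The log2 fold change of Cat was 1.23 (SE 0.487, unadjusted p = 0.0390, adjusted p = 0.940, edgeR) and 0.85 without sensitive replicate 2. The mitochondrial superoxide dismutase Sod2 had 127, 127 and 139 CPM in the sensitive and 154, 91.6 and 92.1 CPM in the resistant group, a log2 fold change of -0.22 (-0.25 without sensitive replicate 2). Of this list of 4 genes 3 were tested, 1 with a log2 fold change above 0 with all libraries and 2 without sensitive replicate 2.

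Among the 13 genes that control NRF2, 0 had an unadjusted p-value under 0.05 (edgeR) and 8 had a log2 fold change above 0, with a median of 0.06 (9 and 0.07 without sensitive replicate 2). Bach1, a repressor that competes with NRF2 at its elements, had 192, 82.4 and 172 CPM in the sensitive and 171, 136 and 158 CPM in the resistant group, with a log2 fold change of 0.06 that was -0.24 without sensitive replicate 2. Mafg, a small MAF partner of NRF2, lay between 204 and 274 CPM in all 6 libraries, with a log2 fold change of 0.21 (0.13 without sensitive replicate 2). Cul3, the scaffold of the ligase that KEAP1 joins, lay between 98.1 and 139 CPM (log2 fold change 0.06, and -0.07 without sensitive replicate 2). Sqstm1, the autophagy receptor p62, which binds KEAP1, lay between 1349 and 2029 CPM (log2 fold change -0.08, and 0.06 without it). Bach2, a relative of Bach1, had 7.61, 2.34 and 13.5 CPM in the sensitive and 12.1, 9.45 and 10.8 CPM in the resistant group, a log2 fold change of 0.46 with a standard error of 0.57 that was 0.03 without sensitive replicate 2.

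Glutathione use genes numbered 18, with 1 at an unadjusted p-value under 0.05 (edgeR), Ggt5, and a median log2 fold change of -0.04 with 9 above 0. Without sensitive replicate 2 the median was 0.08 with 11 above 0, and 0 had an unadjusted p-value under 0.05. Ggt5, a gamma-glutamyltransferase that acts on leukotriene C4 and glutathione conjugates, had 23.8, 70.0 and 16.8 CPM in the sensitive and 20.7, 11.1 and 9.12 CPM in the resistant group, so the groups overlapped and sensitive replicate 2 was far above the rest. Its log2 fold change was -1.43 (unadjusted p = 0.0463, adjusted p = 0.940, edgeR) and -0.58 without that library. Mgst2, a microsomal glutathione transferase, lay between 3.43 and 30.4 CPM with a log2 fold change of -1.13 (SE 0.798), -0.49 without sensitive replicate 2, its highest library, and -1.86 without resistant replicate 2.

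Of 12 thioredoxin and peroxiredoxin genes, 0 had an unadjusted p-value under 0.05 (edgeR), and 3 had a log2 fold change above 0, with a median of -0.08. Without sensitive replicate 2, 7 of the 12 were above 0, the median was 0.09 and 1 gene, Txnip, had an unadjusted p-value under 0.05. Txn1, the substrate of thioredoxin reductase, had 566, 1013 and 697 CPM in the sensitive and 582, 555 and 653 CPM in the resistant group (log2 fold change -0.35, and -0.09 without sensitive replicate 2, its highest library). Prdx1, a cytosolic peroxiredoxin that sulfiredoxin repairs, had 931, 1162 and 1038 CPM in the sensitive and 948, 1558 and 1843 CPM in the resistant group, with resistant replicates 2 and 3 above and resistant replicate 1 among the sensitive libraries (log2 fold change 0.47, and 0.55 without sensitive replicate 2). Txnip, an inhibitor of thioredoxin, had 276, 164 and 245 CPM in the sensitive and 205, 126 and 137 CPM in the resistant group (log2 fold change -0.55, unadjusted p = 0.0989, edgeR). Without sensitive replicate 2 it was -0.75, with an unadjusted p of 0.0177 and an adjusted p of 0.984 (edgeR). Prdx5 was -0.64 on the log2 scale with all libraries and 0.10 without sensitive replicate 2, which had 1088 CPM against at most 415 in the others.

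NADPH supply genes, which feed both reductases, numbered 7, with 0 at an unadjusted p-value under 0.05 (edgeR) and a median log2 fold change of -0.09 with 3 above 0. Without sensitive replicate 2 this median was 0.19, with 6 of 7 above 0. G6pdx, glucose-6-phosphate dehydrogenase, had 280.3, 157 and 267 CPM in the sensitive and 249, 373 and 369.7 CPM in the resistant group (log2 fold change 0.49, and 0.26 without sensitive replicate 2). Me1, malic enzyme, had 12.1, 13.0 and 5.97 CPM in the sensitive and 14.0, 13.8 and 28.0 CPM in the resistant group, which did not overlap (log2 fold change 0.84, SE 0.425, adjusted p = 0.940, edgeR, 1.03 without sensitive replicate 2 and 0.44 without resistant replicate 3). Pgls, 6-phosphogluconolactonase, had 537 CPM in sensitive replicate 2 and between 87.9 and 104 CPM in the other libraries, and its log2 fold change of -1.21 was 0.19 without that library.

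Of 14 quinone, carbonyl and drug-clearing genes, 7 had a log2 fold change above 0 with all libraries (median 0.00) and 11 without sensitive replicate 2 (median 0.19). With all libraries 1 had an unadjusted p-value under 0.05 (edgeR), Aox1, an aldehyde oxidase, with 8.71, 7.92 and 6.95 CPM in the sensitive and 4.85, 4.16 and 5.43 CPM in the resistant group. Aox1 is named after its values were seen, and its libraries did not overlap (log2 fold change -0.71 with and without sensitive replicate 2, unadjusted p = 0.0465 and adjusted p = 0.940 with it, edgeR). Abcc4, an efflux transporter, was higher in all resistant libraries, with 43.4, 48.1 and 46.9 CPM against 39.8, 16.2 and 40.8 CPM (log2 fold change 0.52, and 0.19 without sensitive replicate 2), and Akr1a1, an aldo-keto reductase, was -0.44 on the log2 scale and 0.02 without sensitive replicate 2.

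Of 8 heme and iron targets 0 had an unadjusted p-value under 0.05 (edgeR), and 6 had a log2 fold change above 0 (median 0.20), or 8 without sensitive replicate 2 (median 0.21). Hmox1, heme oxygenase 1, which BACH1 represses, had 5919, 6777 and 7182 CPM in the sensitive and 5462, 11771 and 4955 CPM in the resistant group, with resistant replicate 2 far above the others. Hmox1 had a log2 fold change of 0.16 (SE 0.382, adjusted p = 0.949, edgeR), with 0.17 without sensitive replicate 2 and -0.34 without resistant replicate 2. Slc40a1, the iron exporter ferroportin, had 1377, 666 and 2049.6 CPM in the sensitive and 2031, 1673 and 2395 CPM in the resistant group (log2 fold change 0.58, with 0.24 without sensitive replicate 2 and 1.00 without sensitive replicate 3). Blvra, a biliverdin reductase, was -0.52 on the log2 scale and 0.05 without sensitive replicate 2.

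Cell type markers also differed between these libraries. Of 11 pan-endothelial markers 1 had a log2 fold change above 0 (median -1.20), of 11 neutrophil markers 0 (median -1.82), of 11 LSEC markers 3 (median -0.42) and of 13 macrophage and Kupffer cell markers 6 (median -0.27). These medians were -1.19, -1.43, -0.55 and -0.12 without sensitive replicate 2. In the other direction, 7 of 7 tested hepatocyte markers were above 0 (median 1.10) and 6 of 7 tested stellate cell and fibroblast markers (median 0.70), with medians of 1.25 and 0.84 without sensitive replicate 2. Of 5 epithelial markers 3 were above 0 (median 0.08), and 5 without that library (median 1.05). None of these markers had an adjusted p-value under 0.05 (edgeR), and 10 had an unadjusted one, 8 of them lower in the resistant group. The 8 were 4 of 11 pan-endothelial, 2 of 11 neutrophil, 1 of 11 LSEC and 1 of 13 macrophage and Kupffer cell markers. Higher were 1 of 13 macrophage and Kupffer cell markers and 1 of 7 tested hepatocyte markers. Over all genes 3.08% had an unadjusted p-value under 0.05, 0.536% higher and 2.54% lower. No marker was at 0 in every library. Hepatocyte markers summed to between 33.1 and 195 CPM, stellate cell and fibroblast markers to between 78.8 and 342 CPM and epithelial markers to between 10.8 and 271 CPM. Resistant replicate 2 had the lowest sums of LSEC and pan-endothelial markers, 69.1 and 73.6 CPM, and the highest of hepatocyte and stellate cell markers. The part of any cell type in the levels of the NRF2 antioxidant genes was not tested.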

How the data were processed

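RNA-seq counts of 6 libraries were analysed, 3 per group, with groups and replicate numbers from the sample titles. Per the labels, the authors aligned reads with HISAT2 2.0.5 and made the counts with featureCounts 1.5.0-p3, deposited as whole numbers without normalization. The authors computed the deposited FPKM values from these counts and 1 length per gene. The processing notes name mm9 as the build, but the table also holds gene identifiers that GENCODE M21 lacks, so the build behind the counts is uncertain. Coordinates were taken from GENCODE M21 (GRCm38) by Ensembl identifier, in which 96.2% of the tested genes and all 10 members have an entry. The table of the authors' own comparison (fold changes and p-values from DESeq2 1.16.1) was not used.

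Genes passing filterByExpr of edgeR 4.0.16 (R 4.3.3) were scaled by TMM, and resistant was compared with sensitive by the quasi-likelihood test with robust moderation and Benjamini-Hochberg adjustment over all genes at 0.05. Standard errors are those implied by the F statistic, and 95% intervals use the moderated degrees of freedom. Alternatives used DESeq2 1.42.0 without independent filtering, limma 3.58.1, other filters and scalings, a block for the replicate number, removal of each library's trend with gene length, and the omission of each library. Symbols on more than 1 row (Ddit3) were read from the row with more counts. The members and lists were chosen with earlier results of these data known. Named genes are the members, Hmox1, Bach1, Mafg, Cul3, Sqstm1, Txn1, Prdx1, G6pdx and Me1, and of each pathway list and the ATF4 list the 2 tested genes with the largest absolute log2 fold change at an average log2 CPM of at least 3. The fit was tested on simulated counts, with an outcome that is not reported here. A gene that did not pass the threshold is not read as unchanged.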

Additional observations from a re-analysis of the deposited data

How the results depend on the processing

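Across 16 alternatives, 153 of 160 log2 fold changes of the 10 genes, and 507 of 528 of all 33 named genes, kept their direction, and none had an adjusted p-value under 0.05 (range 0.617 to 1.0). Over all genes, the count at an adjusted p-value under 0.05 was 0 in the main test, 24 with DESeq2's Wald test and 2 with no filter on low counts (34055 genes), and the count at an unadjusted one was 476, between 167 and 1056 with 1 library left out. Of the 10 genes, 1 had an unadjusted p-value under 0.05 with DESeq2, limma-voom and limma on log2(FPKM + 1). The count was also 1 with the replicate block, the length trend removed (chosen after seeing the data) and both of these together, and 2 with no filter. In that order, the shares over all genes were 4.8%, 2.48%, 3.06%, 3.02%, 3.26% and 3.34%, and 5.98% with no filter. Leaving out 1 library gave 0 to 2 of the 10 genes, beside 1.03% to 6.53% of all genes. The 2 were Gclm and Txnrd1 without sensitive replicate 1 (unadjusted p = 0.0192 and 0.0412, edgeR), beside 3.76% of all genes. The median log2 fold change of the 10 lay between 0.05, without sensitive replicate 2, and 0.43, without sensitive replicate 1.

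With each library left out in turn, the log2 fold change turned sign for some genes. Among the 10 these were Keap1 (-0.02 without sensitive replicate 2, to 0.17), Slc7a11 (-0.12 without resistant replicate 2, -0.00 without sensitive replicate 2, to 0.43), Nqo1 (-0.05 without sensitive replicate 3, to 0.79) and Gsr (-0.39 to 0.29, the latter without sensitive replicate 1). Others turned without sensitive replicate 2: Bach1 (-0.24 to 0.29), Cul3 (-0.07 to 0.18), Sqstm1 (-0.18 to 0.06), Prdx5 (-0.95 to 0.10), Pgls (-1.59 to 0.19), Akr1a1 (-0.67 to 0.02), Blvra (-0.74 to 0.05) and Phgdh (-1.39 to 0.32). Hmox1 ranged from -0.34, without resistant replicate 2, to 0.39, Sqstm1 was also 0.04 without resistant replicate 2 and Bach1 -0.01 without resistant replicate 1. Slc7a11 was at -0.04 with the replicate block and the length trend removed, Gsr at 0.00 with log2(FPKM + 1), Bach1 and Cul3 at -0.00 with the length trend removed and Sqstm1 at 0.00 with no filter. The cause was not tested.

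The sample titles give no pairing beyond the replicate number. Deviations from the group means correlated across genes at -0.000932, 0.0343 and 0.194 for libraries with the same number 1, 2 and 3. For libraries with different numbers the correlations lay between -0.129 and 0.0775. With the replicate block (edgeR) 0 genes passed 0.05 after adjustment and 467 before it, and of the 10 genes Txnrd1 passed before it (log2 fold change 1.05, unadjusted p = 0.0417, adjusted p = 0.938). The 10 genes had at least 129 counts in every library, and the common biological coefficient of variation over all genes was 42.2%.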
